A study of Mus musculus with 6 samples.

Results

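*Nr4a1*, *Nr4a2* and *Nr4a3* encode the NR4A family of orphan nuclear receptors, and the regions described here are the accessible regions of the 3 genes in splenic regulatory T cells (Tregs). A region was taken when it overlapped the annotated gene or the 10 kb on either side of it. The Foxp3creCREBfl/fl list held 27 such regions of 94499 and the CREBfl/fl list 24 of 100771, and joined by overlap they made 25 of 104845 regions. Open chromatin was measured by ATAC-seq, in which a transposase cuts open DNA and sites rich in sequenced fragments are called as peaks. Mice of the deletion group carried a Foxp3-driven Cre and floxed CREB alleles (Foxp3creCREBfl/fl), which deletes CREB in cells that express Foxp3, and the controls carried the floxed alleles without the Cre (CREBfl/fl). An effect of the Cre allele itself and one of CREB loss cannot be told apart in this design. Both groups were on the C57BL/6 background, were 6 to 12 weeks old and had 3 libraries each by the labels, while the methods describe sequencing in duplicate. The files used here are 1 peak list per group, so each value below stands for a group and not for a mouse, and no difference was tested across mice. A peak list does not show whether the floxed exon was lost, which was not analysed here.
NR4A receptors are transcription factors that act without a known physiological ligand and bind the NBRE, an extended receptor site in DNA. They are immediate early genes: signals through the T cell receptor and through cAMP induce them within a short time, and CREB, which binds the cAMP response element (CRE) and its half-site, is a known activator of their promoters. In Tregs the NR4A receptors are known to maintain Foxp3 expression and to restrain the programs of other T helper cells.

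The promoters are shown first, because the lowest ratio of *Nr4a2* and that of *Nr4a3* were both measured at a start site and the genes are compared there. *Nr4a1* (ENSMUSG00000023034.7) spans chr15:101254269-101274795 and is read forward, *Nr4a2* (ENSMUSG00000026826.13) spans chr2:57106830-57124003 and is read in reverse, and *Nr4a3* (ENSMUSG00000028341.9) spans chr4:48045153-48086447 and is read forward (GRCm38, GENCODE vM21). *Nr4a1* and *Nr4a2* each have a distal start site at the 5′ end of the gene and a proximal one inside it, at 101266846 and 57115038. The 200 bases upstream of the 5 start sites, read from the RefSeq copy of GRCm38, are given 5′ to 3′ in the direction of the gene. Capitals mark the CRE half-site TGACG on either strand, so that CGTCA is a half-site of the other strand and the full CRE, TGACGTCA, is 2 half-sites that overlap. None of these windows overlapped an annotated exon.
Nr4a2 proximal, chr2:57115039-57115238, reverse strand: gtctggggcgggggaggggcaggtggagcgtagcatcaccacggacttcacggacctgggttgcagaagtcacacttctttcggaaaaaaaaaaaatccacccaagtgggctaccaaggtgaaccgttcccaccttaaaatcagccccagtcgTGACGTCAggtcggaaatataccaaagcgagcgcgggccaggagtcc
Nr4a2 distal, chr2:57124004-57124203, reverse strand: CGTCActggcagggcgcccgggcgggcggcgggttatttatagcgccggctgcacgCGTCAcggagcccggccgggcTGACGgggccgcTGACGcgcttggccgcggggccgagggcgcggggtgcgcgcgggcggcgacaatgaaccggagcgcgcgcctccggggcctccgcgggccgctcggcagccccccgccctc
Nr4a3, chr4:48044953-48045152, forward strand: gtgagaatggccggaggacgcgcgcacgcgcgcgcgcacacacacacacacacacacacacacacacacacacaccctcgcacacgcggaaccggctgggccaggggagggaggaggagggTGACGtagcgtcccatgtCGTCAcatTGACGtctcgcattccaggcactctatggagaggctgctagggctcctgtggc
Nr4a1 proximal, chr15:101266646-101266845, forward strand: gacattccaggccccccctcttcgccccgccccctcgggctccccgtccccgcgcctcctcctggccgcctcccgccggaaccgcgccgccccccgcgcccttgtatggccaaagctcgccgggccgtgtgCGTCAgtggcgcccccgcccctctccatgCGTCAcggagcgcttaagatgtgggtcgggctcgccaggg
Nr4a1 distal, chr15:101254069-101254268, forward strand: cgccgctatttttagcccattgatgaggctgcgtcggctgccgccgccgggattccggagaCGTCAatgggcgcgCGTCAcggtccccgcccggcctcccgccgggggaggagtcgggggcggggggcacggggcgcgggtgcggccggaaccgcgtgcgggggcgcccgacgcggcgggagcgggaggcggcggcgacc
All 5 windows held the half-site. The distal window of *Nr4a2* had 4 of them, that of *Nr4a3* had 3, and the other windows had 2 each. Of 93148 start sites of protein-coding genes, 17.1% had at least 1 half-site in this window, 3.84% at least 2, 0.691% at least 3 and 0.133% at least 4. These shares were not matched for base composition, and TGACG itself holds a CG. The proximal window of *Nr4a2* was 56.5% G and C, that of *Nr4a3* 64.5%, those of *Nr4a1* 76.0% (proximal) and 79.0% (distal), and the distal window of *Nr4a2* 81.0%. The proximal window of *Nr4a2* was the only one of the 5 with the whole CRE, 40 to 47 bases upstream of the start, and 1.65% of all start sites had a CRE in theirs. The half-sites of *Nr4a3* lay closer to the start, at 49 to 53, 57 to 61 and 75 to 79 bases upstream, than those of the distal window of *Nr4a2*, the nearest of which lay 107 to 111 bases upstream. Those of the proximal window of *Nr4a1* lay 36 to 40 and 65 to 69 bases upstream. A word in the sequence is a description and does not show that CREB is bound there.

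The 3 genes differed in how accessible they were. The number of fragments over the highest point of a region, here called the pileup, was set over the background of the whole genome in its list, 5.09 in Foxp3creCREBfl/fl and 8.44 in CREBfl/fl, and the quotient is called the level. The CREBfl/fl background was thus 1.66 times the Foxp3creCREBfl/fl one, and the level corrects for this only as far as fragments were counted alike for both lists, which cannot be seen from them. In Foxp3creCREBfl/fl the proximal start of *Nr4a1* had a level of 113 (pileup 574), its distal start 73.7 (375), the start of *Nr4a3* 65.5 (333), the proximal start of *Nr4a2* 12.4 (63) and its distal start 9.43 (48). In CREBfl/fl the levels of the same regions were 117 (984), 71.2 (601), 104 (877), 53.9 (455) and 18.1 (153). The proximal start of *Nr4a1* was the highest and the distal start of *Nr4a2* the lowest in both lists. The 2 orders differed in the place of *Nr4a3*. In Foxp3creCREBfl/fl the pileup at the distal start of *Nr4a1* was 1.13 times that of *Nr4a3* (exact 95% interval 0.969 to 1.31), so the pair did not differ beyond counting error, whereas in CREBfl/fl *Nr4a3* was 1.46 times as high as the distal start of *Nr4a1* (1.31 to 1.62). The 2 start sites of *Nr4a2* did not differ beyond counting error in Foxp3creCREBfl/fl (1.31-fold, 0.887 to 1.95), against 2.97-fold in CREBfl/fl (2.47 to 3.60). The value of a start site is that of the strongest summit in the joined region that holds it. For the distal start of *Nr4a2* this summit lay downstream of the start in both lists, 322 bases away in CREBfl/fl. All intervals here and below cover counting error only. Each library pooled many cells, so a changed mix of cells and a change per cell cannot be told apart.

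**Figure D1:**
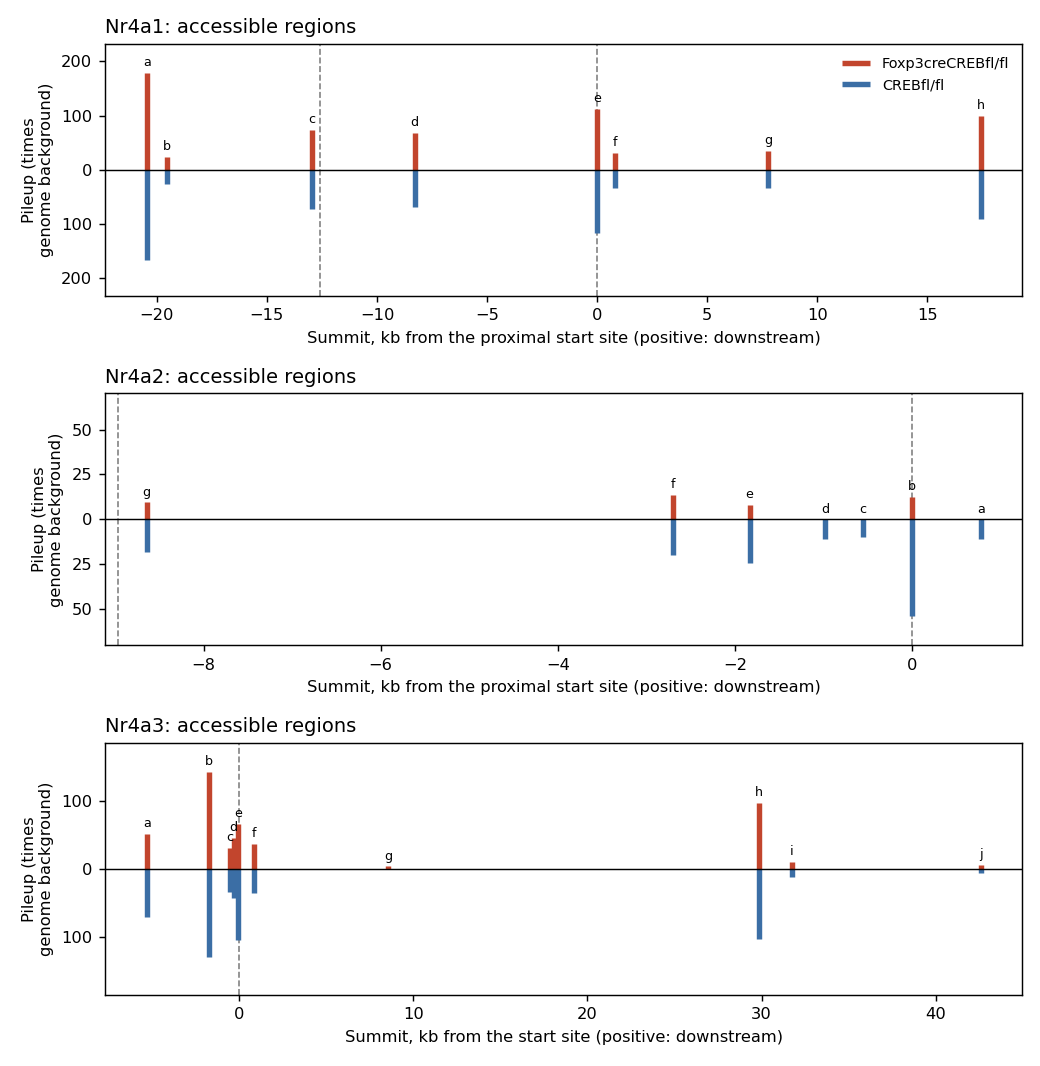
Level of each accessible region (pileup in multiples of the genome background, vertical axis) by the distance of its summit from the start site in kb (horizontal axis, proximal start for *Nr4a1* and *Nr4a2*), with Foxp3creCREBfl/fl drawn upwards and CREBfl/fl downwards; letters name the regions, dashed lines are start sites, and the scale of both axes differs between genes. The bars of *Nr4a1* are of like height in both directions, while at the proximal start of *Nr4a2* (region b) the bar is 12.4 upwards and 53.9 downwards.

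Groups were compared by the log2 ratio of the levels, Foxp3creCREBfl/fl over CREBfl/fl, relative to the median of all 82006 shared regions that could be compared. That median was 0.15 above 0, so every ratio would be 0.15 higher without it. To be called lower or higher, a region had to be 2-fold or more away from this median, and at least 5 counting SDs. Of the 21 shared regions of the *Nr4a* genes, 2 were called lower and 0 higher. Among all shared regions 0.118% were called lower and 0.0829% higher. Both lower regions belonged to *Nr4a2*. The 95% interval lay below 0 in 10 of the 21 regions and above 0 in 0, and among all shared regions it lay below 0 in 7.88% and above 0 in 5.47%. By gene, it lay below 0 in 4 of 4 regions of *Nr4a2*, 4 of 9 of *Nr4a3* and 2 of 8 of *Nr4a1*. The median ratio was -1.42 for *Nr4a2* (range -2.27 to -0.69), -0.23 for *Nr4a3* (-0.82 to -0.01) and -0.13 for *Nr4a1* (-0.32 to -0.01). All 21 ratios were below 0, which held for 13 of them without the shift to the median, for 20 when the median of regions of like pileup was used, and for 11 with the authors' fold over the local background in place of the level.

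**Figure D2:**
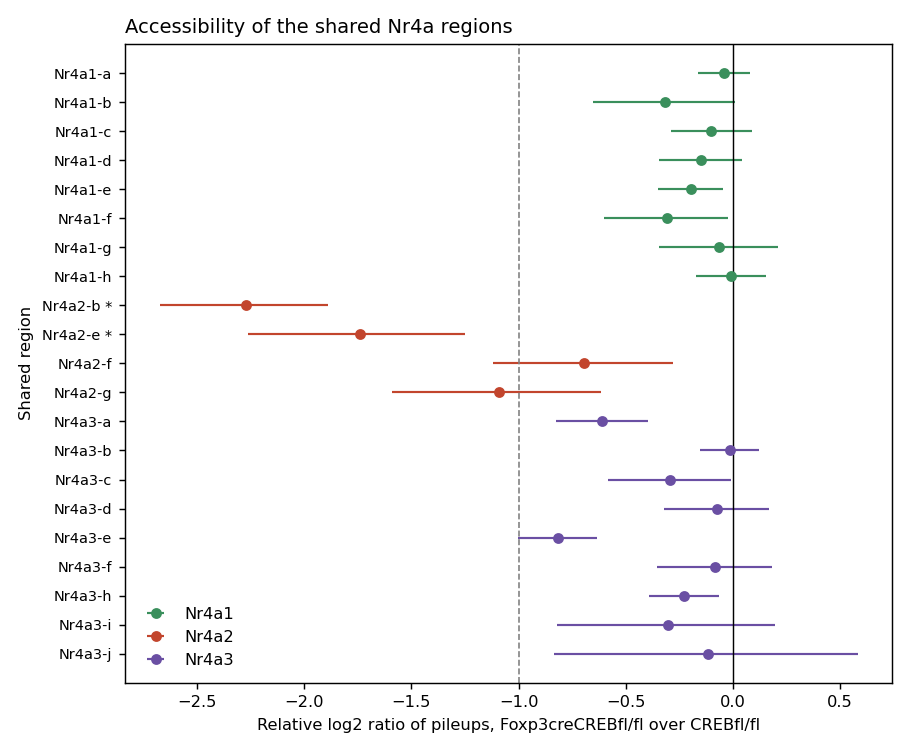
Relative log2 ratio of the pileups in Foxp3creCREBfl/fl over CREBfl/fl (horizontal axis) for the 21 shared regions of the *Nr4a* genes (vertical axis), with exact 95% counting intervals as bars; the dashed line is 2-fold lower and stars mark the regions called lower. All 4 regions of *Nr4a2* lie at -0.69 or below, and of the others only the start of *Nr4a3* (Nr4a3-e, -0.82) lies below that.

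*Nr4a2* had the lowest ratios of the family, at its proximal start. This region (Nr4a2-b, chr2:57114422-57115453) has its summit 4 bases upstream of the proximal start, in an intron of the longer transcripts. At a ratio of -2.27 (95% interval -2.68 to -1.89) it was the sixth lowest of the 82006 shared regions. Regions of like pileup in CREBfl/fl had an SD of 0.22 in this ratio. The called stretch was 592 bases wide in Foxp3creCREBfl/fl and 1032 bases in CREBfl/fl. Region Nr4a2-e (chr2:57116398-57117432), 1.84 kb upstream of that start and in an intron of the longer transcripts, had pileups of 41 in Foxp3creCREBfl/fl and 205 in CREBfl/fl. Its ratio of -1.74 (-2.26 to -1.25) was the 23rd lowest of all. The region at the distal start (Nr4a2-g, chr2:57123282-57124429) had pileups of 48 in Foxp3creCREBfl/fl and 153 in CREBfl/fl, and its ratio of -1.09 (-1.59 to -0.62) was past 2-fold but not past 5 counting SDs. In Foxp3creCREBfl/fl this region was called as 3 peaks, and the start itself (57124003) lay between peaks. The summits compared were at 57123499 in Foxp3creCREBfl/fl and 57123681 in CREBfl/fl, both downstream of the start. The narrow region Nr4a2-f (chr2:57117684-57117803), 2.70 kb upstream of the proximal start, had pileups of 69 in Foxp3creCREBfl/fl and 167 in CREBfl/fl and a ratio of -0.69 (-1.12 to -0.28). In Foxp3creCREBfl/fl the pileups of Nr4a2-f (69) and the proximal start (63) were close to each other, whereas in CREBfl/fl the proximal start was the highest of the 4 regions.
Regions with a call in only 1 list were few. Of the 24 CREBfl/fl regions, 3 had no counterpart in Foxp3creCREBfl/fl (12.5%, Wilson 95% interval 4.34 to 31.0), against 16.4% of all CREBfl/fl regions. All 3 lay within 1 kb of the proximal start of *Nr4a2*: Nr4a2-a (chr2:57114174-57114366) 0.775 kb downstream with a pileup of 94, Nr4a2-c (chr2:57115566-57115667) 0.552 kb upstream with 85, and Nr4a2-d (chr2:57115987-57116077) 0.983 kb upstream with 90. They were weak in CREBfl/fl, at 10.1 to 11.1 times the genome background and at an authors' fold of 1.82 to 1.98 over the local one. Where the local background was like that of the nearest Foxp3creCREBfl/fl summit, that list called regions down to a pileup of 24. The 3 remained without a counterpart when the CREBfl/fl list was put at the depth of the Foxp3creCREBfl/fl list, a comparison chosen after the lists had been seen. With a minimum of 5 on the -log10 q of both lists, Nr4a2-a and Nr4a2-d were left, and with a minimum of 10 the 3 regions without a counterpart were Nr4a2-e, Nr4a3-c and Nr4a3-i instead. Of the 27 Foxp3creCREBfl/fl regions, 1 had no counterpart in CREBfl/fl (3.70%, 0.657 to 18.3), against 6.61% of all. It lay in an intron of *Nr4a3* (Nr4a3-g, chr4:48053640-48053723), had a pileup of 19 and was not left with a minimum of 5 on the -log10 q.

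The local background at *Nr4a2* was measured as well. The peak caller sets each region against a local background, the fragment density in a window around the region that includes the fragments of the region itself. Around the 4 shared regions of *Nr4a2* this local background was 1.12 to 2.29 times the genome background in Foxp3creCREBfl/fl and 1.92 to 5.52 times in CREBfl/fl. Its relative log2 ratio, set to the median of 55719 regions, had a median of -1.35 (range -1.39 to -0.85), against -0.18 (-0.20 to -0.13) around 8 regions of *Nr4a3* and -0.21 (-0.37 to 0.04) around 8 regions of *Nr4a1*. These windows overlap within a gene and hold the fragments of the regions, so their values are independent neither of each other nor of the summits, and they do not show how far the difference extends. With the authors' fold over the local background in place of the level, the ratio at the proximal start of *Nr4a2* was -0.97. It was -0.41 at Nr4a2-e, -0.34 at the distal start and 0.64 at Nr4a2-f. Over their own surroundings, 3 of the 4 ratios were still below 0 and that of Nr4a2-f was above. On this scale 0 of the 21 regions were called lower, but the share of all shared regions so called was not computed. This 0 thus cannot be set beside the 2 calls made with the level. By the level, 5 shared regions between 10 and 500 kb from *Nr4a2* had a median ratio of -0.11 (range -0.16 to 0.45). Of them 0 were called, which at 0.118% lower and 0.0829% higher among all shared regions says nothing particular of 5 regions. Over the whole window the summed level of *Nr4a2* was 43.4 in Foxp3creCREBfl/fl, with 2643 bases covered by regions, and 148 in CREBfl/fl, with 3695 bases covered, a relative log2 ratio of -1.92. This sum takes the 3 regions not called in Foxp3creCREBfl/fl as 0 and so depends in part on the calling. With the shared regions alone the ratio was -1.57. Both ratios use only the strongest peak of each list in a joined region, while the bases covered count every peak. In Foxp3creCREBfl/fl this leaves out a weaker peak with a pileup of 38 in Nr4a2-e, beside the 41 used. In Nr4a2-g it leaves out weaker peaks of 40 and 29, beside the 48 used. In CREBfl/fl each joined region held 1 peak and none was left out. The weaker peaks are not small beside those used. Counting them would make both ratios clearly less negative, by an amount that was not computed. The mean level over joined regions with a call, by their strongest peak, was 10.9 over 4 regions in Foxp3creCREBfl/fl and 21.1 over 7 regions in CREBfl/fl. The 7 include the 3 weak regions called only in CREBfl/fl, so the 2 means are over unlike sets.

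**Figure D3:**
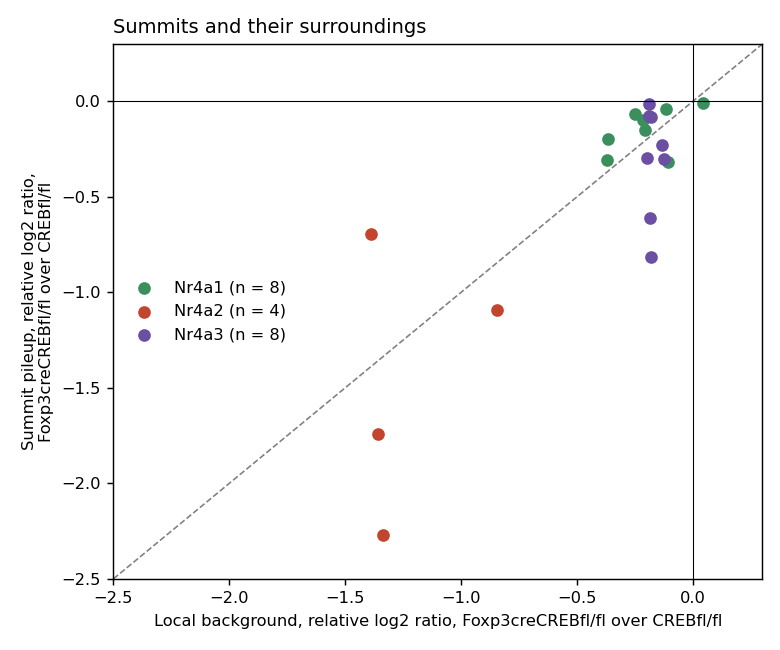
Relative log2 ratio of the summit pileup (vertical axis) against that of the local background (horizontal axis), Foxp3creCREBfl/fl over CREBfl/fl, for the 20 shared regions of the *Nr4a* genes whose local background was above the genome background in both lists; the dashed line marks equal ratios. The 4 points of *Nr4a2* have local backgrounds at -0.85 or below, while those of *Nr4a1* and *Nr4a3* lie between -0.37 and 0.04.

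At *Nr4a3* the ratio was lowest at the start site. Region Nr4a3-e (chr4:48045021-48045411), whose CREBfl/fl summit lies 30 bases upstream of the start, had pileups of 333 in Foxp3creCREBfl/fl and 877 in CREBfl/fl, a ratio of -0.82 (-1.003 to -0.633). It was the 779th lowest of 82006 shared regions and did not reach 2-fold. The intergenic region Nr4a3-a (chr4:48039718-48039974), 5.30 kb upstream, had pileups of 262 in Foxp3creCREBfl/fl and 598 in CREBfl/fl, a ratio of -0.61 (-0.82 to -0.40). Between them lay the highest region of this gene, Nr4a3-b (chr4:48042650-48043707), 1.73 kb upstream of the start, with pileups of 721 in Foxp3creCREBfl/fl and 1089 in CREBfl/fl and a ratio of -0.01 (-0.15 to 0.12). Ratios far from 0 and near 0 thus alternated along a few kb. The 3 narrow regions beside the start were Nr4a3-c (-0.29, -0.58 to -0.01), Nr4a3-d (-0.08, -0.32 to 0.17) and Nr4a3-f (-0.08, -0.36 to 0.18). In an intron, 29.8 kb downstream of the start, Nr4a3-h (chr4:48074676-48075495) had pileups of 492 in Foxp3creCREBfl/fl and 862 in CREBfl/fl and a ratio of -0.23 (-0.39 to -0.07). The weak regions Nr4a3-i and Nr4a3-j had ratios of -0.30 and -0.12, with intervals that included 0. The summed level of the gene was 488 in Foxp3creCREBfl/fl (3118 bases covered, mean level 48.8 over 10 regions) and 535 in CREBfl/fl (3062 bases, 59.4 over 9 regions), a relative log2 ratio of -0.28. Between 10 and 500 kb from the gene, 30 shared regions had a median of -0.08. Of these 0 were called, which at 0.118% lower and 0.0829% higher among all shared regions says nothing particular of 30 regions.
*Nr4a1* had the highest levels and the median ratio nearest to 0. Its highest region, Nr4a1-a (chr15:101246080-101246834), 7.88 kb upstream of the distal start, had pileups of 908 in Foxp3creCREBfl/fl and 1397 in CREBfl/fl, a ratio of -0.04 (-0.16 to 0.08). The region of the proximal start, Nr4a1-e (chr15:101266362-101267328), was at -0.20 (-0.35 to -0.05), and the distal start, Nr4a1-c (chr15:101253623-101254371), at -0.10 (-0.29 to 0.09). Without the shift to the median the proximal start was at -0.05, and with the fold over the local background at 0.18, so its direction depends on the scale. The same holds for Nr4a1-f, 0.808 kb downstream of the proximal start, with -0.31 (-0.60 to -0.02) and 0.07 over the local background. Nr4a1-b, Nr4a1-d and Nr4a1-g had ratios of -0.32, -0.15 and -0.06 with intervals that included 0. Nr4a1-g overlaps an untranslated exon at the end of the gene. Nr4a1-h, 17.4 kb downstream of the proximal start, holds the start site of *Atg101*, which encodes a component of the autophagy initiation complex, and had a ratio of -0.01 (-0.17 to 0.16). The summed level was 622 in Foxp3creCREBfl/fl (5456 bases covered, mean level 77.8) and 606 in CREBfl/fl (5941 bases, 75.7), a relative log2 ratio of -0.11. This sum, too, takes the strongest peak of each joined region and leaves out Foxp3creCREBfl/fl peaks with pileups of 80 and 262. Counting them would raise the ratio, so its direction is not settled. The 60 shared regions between 10 and 500 kb away had a median of -0.03.

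The start sites of the 3 genes were compared with each other by the difference of their ratios. Of the 3 pairs made, the proximal start of *Nr4a2* minus that of *Nr4a1* gave a log2 difference of -2.07 (exact 95% interval -2.51 to -1.66), and minus the start of *Nr4a3* one of -1.45 (-1.90 to -1.03). *Nr4a3* minus the proximal start of *Nr4a1* gave -0.62 (-0.86 to -0.38). None of the 3 intervals included 0. These differences do not depend on the shift to the median, which cancels.

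Among the promoters of all genes, each taken as the strongest region within 1 kb of a start site, *Nr4a2* had the second lowest ratio of 13350 protein-coding genes, *Nr4a3* the 60th lowest and *Nr4a1* the 1221st lowest. Of these promoters, 0.12% were called lower and 0.0375% higher by the same criteria. In the plane of CREBfl/fl level and ratio, with 1 list per group, the genes nearest to *Nr4a2* were *Gnas* (ratio -1.54, -1.88 to -1.22), *Klhdc9* (-1.42, -1.71 to -1.13) and *Agpat4* (-1.32, -1.61 to -1.04), at distances of 0.741 to 0.960 log2 units. *Gnas*, which encodes the stimulatory G protein subunit that activates adenylyl cyclase, had pileups of 95 in Foxp3creCREBfl/fl and 414 in CREBfl/fl. Nearest to *Nr4a3* were *Runx3* (-0.85, -1.04 to -0.67), *Jmy* (-0.70, -0.89 to -0.52) and *Gpr132* (-0.55, -0.73 to -0.37), at 0.036 to 0.286 log2 units. *Nr4a1* stood among many promoters, with *Rhog*, *Klhl21* and *Pycr1* within 0.0213 log2 units. The place of *Nr4a2* is sparse by contrast, since its nearest promoter was farther from it than those of the other 2 genes.
The promoters of other genes that CREB is known to activate after a stimulus were set beside those of the *Nr4a* genes. Of 22 activity-induced CREB targets, all measured, 0 were called lower and 0 higher, which at the shares over all promoters says nothing particular of 22 genes, and the median ratio was -0.05, against 0.02 for all 13350 promoters. The interval lay below 0 in 5 of the 22 and above 0 in 1, against 6.88% and 7.27% of all promoters. The lowest were *Egr3*, which encodes a zinc finger factor induced by the T cell receptor, with levels of 77.2 in Foxp3creCREBfl/fl and 95.7 in CREBfl/fl and a ratio of -0.46 (-0.64 to -0.28), *Klf4*, a Krüppel-like factor (-0.45, -0.63 to -0.27), and *Fosl2*, an AP-1 subunit (-0.30, -0.49 to -0.11). The highest were *Sik1*, a kinase that restrains the coactivators of CREB (0.19, 0.05 to 0.33), *Dusp1*, a phosphatase of MAP kinases (0.14, -0.01 to 0.28), and *Crem*, the CREB relative (0.06, -0.06 to 0.18). The start of *Nr4a3* lay below all 22, and that of *Nr4a1* between *Atf3* (-0.20, -0.51 to 0.12) and *Pde4d* (-0.28, -0.55 to -0.01).
Of 17 genes that encode partners of the NR4A receptors or are targets of them in T cells, all measured, 0 were called. At 0.12% lower and 0.0375% higher among all promoters this says nothing particular of 17 genes. Their median was -0.02. The interval lay below 0 in 3 of them and above 0 in 4, beside the same 6.88% and 7.27% of all promoters. *Ikzf4*, which encodes the Treg factor Eos (-0.47, -0.75 to -0.19), *Tox2* (-0.32, -0.54 to -0.09) and *Ctla4*, the inhibitory receptor (-0.28, -0.44 to -0.13), were lowest, while *Il4* (0.49, 0.09 to 0.88), *Runx1* (0.22, 0.06 to 0.37) and *Il21* (0.21, -0.38 to 0.80) were highest. The promoter of *Foxp3* was at -0.09 (-0.24 to 0.06). Among 17 other nuclear receptors with a promoter that could be compared, 0 were called, which at 0.12% and 0.0375% again says nothing particular. The median was -0.01, and the interval lay below 0 in 4 and above 0 in 1, again beside 6.88% and 7.27%. *Rara*, a retinoic acid receptor (-0.40, -0.56 to -0.24), *Rarg* (-0.23, -0.38 to -0.08) and *Rora* (-0.19, -0.36 to -0.02) were lowest, and *Ppara* (0.36, 0.02 to 0.70), *Nr1h3* (0.19, -0.04 to 0.42) and *Thra* (0.16, -0.07 to 0.40) highest.

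**Figure D4:**
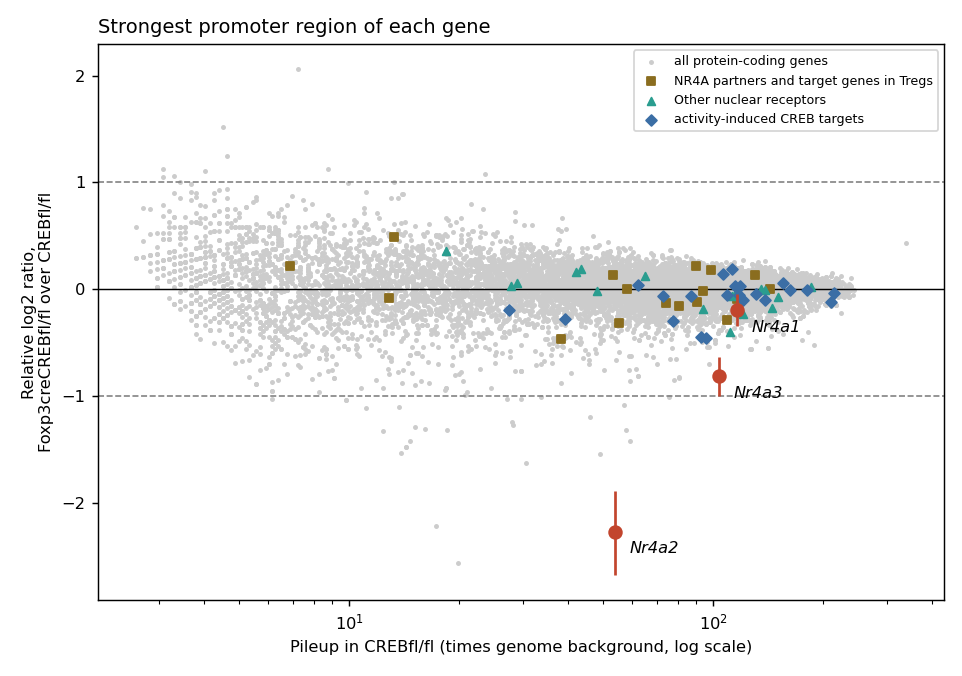
Relative log2 ratio of the strongest promoter region, Foxp3creCREBfl/fl over CREBfl/fl (vertical axis), against its level in CREBfl/fl (horizontal axis, log scale), for 13350 protein-coding genes, with the members of the 3 gene lists in colour and the *Nr4a* genes with exact 95% counting intervals; dashed lines are 2-fold differences. *Nr4a2* lies at -2.27 and *Nr4a3* at -0.82, below the members of all 3 lists, the lowest of which is at -0.47.

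Sequence words, which the choice of members did not use, were present in some of the regions of the *Nr4a* genes. Words were searched on both strands of the 25 regions, and for each region the share of all regions within 10% of its length that held the word was taken for comparison. The regions compared were matched by length and not by base composition. The half-site TGACG was present in 11 of the 25 regions, 5 of *Nr4a1*, 3 of *Nr4a2* and 3 of *Nr4a3* (44.0%), while the shares in regions of like length averaged 27.0% over the 25 and ranged from 4.32% to 73.1% with the length. In Nr4a3-e it had 4 copies and 18.3% of like regions held at least 1. In Nr4a2-b it also had 4 copies, 2 of them in the CRE, but 57.9% of regions of that length held it. The CRE was present in Nr4a2-b alone, and 4.46% of like regions had it. Nr4a2-e and the distal region Nr4a2-g had 3 and 4 half-sites. The short regions Nr4a2-a, Nr4a2-c and Nr4a2-d, which were not called in Foxp3creCREBfl/fl, had 0, as had Nr4a2-f, where 6.06% of regions of like length held the word.
Half-sites were also present in regions that were not called lower. Nr4a3-b held 4 half-sites at a ratio of -0.01 (-0.15 to 0.12), and Nr4a1-e held 4 at -0.20 (-0.35 to -0.05). The 6-base RUNX word TGTGGT was in 4 of the 25 regions (16.0%, against an average of 32.0% at like length), the SP1 word GGGCGG in 8 (32.0%, against 30.4%), the NFAT core GGAAA in 14 (56.0%, against 65.6%) and the ETS word CCGGAAGT in 1 (4.00%, against 3.94%). The AP-1 words TGACTCA and TGAGTCA were in 0 regions (average at like length 11.8%), as were the NBRE AAAGGTCA, the site of the NR4A receptors themselves (2.59%), and the control palindrome TGAGCTCA (1.56%). The absence of a word says only that these letters are not in the regions.

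The label of the cells was checked by promoters of marker genes. All 7 Treg and T cell markers, *Foxp3* included, had an open promoter in both lists, with a summed level of 508 in Foxp3creCREBfl/fl and 507 in CREBfl/fl. Some of the 7 were higher in Foxp3creCREBfl/fl and some lower, so like sums do not show like levels marker by marker. All marker levels are given without the shift to the median of 0.15. Markers of other cells were mixed. *Cd79a* (B cells), *Csf1r* and *Lyz2* (myeloid cells), *Cd8a* and *Ncr1* (CD8 T and NK cells) and *Hba-a1* (erythroid cells) had no region in either list, while others had open promoters. Of the B cell markers with a region, *Pax5* had a level of 26.1 in Foxp3creCREBfl/fl and 19.8 in CREBfl/fl, and *Ms4a1* one of 7.47 in Foxp3creCREBfl/fl and 3.08 in CREBfl/fl. The 4 myeloid markers summed to 71.9 in Foxp3creCREBfl/fl and 60.0 in CREBfl/fl, with a region at 2 of them. The sums were 25.0 in Foxp3creCREBfl/fl and 25.6 in CREBfl/fl for the 4 markers of CD8 T and NK cells (2 with a region), and 112 in Foxp3creCREBfl/fl and 110 in CREBfl/fl for the 4 erythroid markers (3 with a region). The erythroid marker *Klf1* was at 75.3 in Foxp3creCREBfl/fl and 66.8 in CREBfl/fl, close to the Treg marker *Ikzf2* (75.3 and 74.2). An open promoter of a marker thus does not by itself name the cell. Whether other cells had a part in the differences at the *Nr4a* genes was not tested.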

How the data were processed

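ATAC-seq peak lists of splenic Tregs were used, 1 for each group of 3 libraries. How the libraries were joined is not given in the sources here. The authors' steps were trimming of 75 bp paired reads (Trim Galore), alignment (Bowtie2), removal of duplicates, a quality filter (SAMtools) and peak calling (MACS2), with no versions stated. The deposited lists give each peak a fold (the ratio of pileup to background at the summit), a p-value and a q-value as −log10, and the position of the summit. The methods name mm9 and calling without a local background. The positions were read as GRCm38, since 0 regions ran beyond a chromosome and, of 93475 start sites, 53.3% had a CREBfl/fl region within 1 kb, against 14.8% after a shift of 100 kb. Only 29.8% of Foxp3creCREBfl/fl and 32.7% of CREBfl/fl regions had the lowest background of their list, so a local background was used in the calling.
From the deposited fold and p-value, whole-number pileups and their backgrounds were recovered for 99.98% of Foxp3creCREBfl/fl and 99.94% of CREBfl/fl peaks, within 0.002 on the −log10 scale (Python 3.11.15, numpy 2.4.6, pandas 2.3.3, scipy 1.17.1). The median pileup was 66 in Foxp3creCREBfl/fl and 90 in CREBfl/fl. Peaks that overlap by at least 1 bp were joined, the strongest summit of each list was taken, and exact conditional binomial 95% intervals were computed. Recovery was checked on values built with the same formula, and the intervals on counts simulated with counting error only. The simulation does not cover scatter beyond counting error. With 1 list per group no p-value is given. The regions, gene lists, words and tests were chosen with earlier results of these data known. Named are all regions of the *Nr4a* genes, the 3 lowest and 3 highest promoters of each gene list, and the 3 promoters most like that of each *Nr4a* gene; *Foxp3*, *Atf3* and *Pde4d* were named after their values were seen. Some members of the gene and marker lists are not reported here. Alternatives were another overlap, other q minimums and flanks, other centrings, the authors' fold, another summit, a milder rule, summit windows for the words and all promoter regions of a gene.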

Additional observations from a re-analysis of the deposited data

How the results depend on the processing

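Of 169 recomputed values, 146 stayed within their counting interval, within 1.5 times the count or, for list medians, within 1 SD of the genes. No paired analysis was possible because each group has 1 peak list, although the libraries share replicate numbers, and for the same reason no replicate could be left out. With the authors' fold over the local background the ratio was -0.97 at the proximal and -0.34 at the distal start of *Nr4a2*, -0.61 at that of *Nr4a3*, 0.18 at the proximal and 0.13 at the distal start of *Nr4a1*, 0.64 at Nr4a2-f and 0.073 at Nr4a1-f. On that scale 0 regions were called lower, and the share over all shared regions was not computed. The local background includes the fragments of the region itself. Without centring, the proximal start of *Nr4a1* was at -0.047. At 1.5-fold and 3 counting SDs, 6 regions were lower, all 4 of *Nr4a2* with Nr4a3-a and Nr4a3-e, against 1.35% of all shared regions. CREBfl/fl regions with a counterpart numbered 13 in the gene bodies and 38 with 50 kb flanks. Foxp3creCREBfl/fl-only regions numbered 7 with a reciprocal overlap of 50%, and 0 with −log10 q minimums of 5 or 10. The summed log2 ratio was -1.57 for *Nr4a2* with shared regions only, and -0.40 for *Nr4a3* in the gene body. The proximal start of *Nr4a2* kept its call under the 3 other centrings (-2.29 to -2.12). Pairing with the nearest summit could not change a ratio, because CREBfl/fl had 1 peak in each shared region. Its values are among those that stayed and say nothing of robustness. A level near the lowest pileups called, 14 in Foxp3creCREBfl/fl and 19 in CREBfl/fl, limits what can be seen of weak regions.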
